A study of Mus musculus with 6 samples.

Results

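Regions of open chromatin at histone genes were compared between lung endothelial cells of CSE-KO and WT mice. ATAC-seq reads accessibility through Tn5, a transposase that cuts and tags DNA where chromatin is open. CSE-KO libraries are labelled Cre-positive and knockout for cystathionine gamma-lyase (CSE), the enzyme encoded by Cth that makes cysteine from cystathionine. WT libraries are labelled Cre-negative, with 3 libraries in each group. The labels do not say in which cells of the mice the gene was lost. Cre and the knockout go together in every library, so their effects cannot be told apart. The sources used here give neither the age of the mice, nor the promoter that drives Cre, nor the animal behind each library, and p-values therefore measure only the spread between these libraries.

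The deposited table holds 58172 regions, and 47 of them carry a histone gene symbol of the replication-dependent families (Hist, H2ac, H2bc, H3c and H4c names) or of H1f. All 47 had a mean value of at least 5 and were tested. The deposited symbols name the protein and not the gene copy: the symbol H4c1 stood at 13 regions and Hist1h3b at 8, and the 47 regions bore 17 symbols but 44 gene identifiers. Each region was therefore named after the RefSeq gene at the deposited gene position on GRCm38.p6, the build of mm10, which gave 44 genes. By type, 8 regions belonged to H2A genes, 13 to H2B, 12 to H3, 13 to H4 and 1 to H1. The H1 region lies at H1f10, a linker histone gene that is not replication-dependent, so it is no member of that family. The regions lay in a cluster on chromosome 3 (7 regions between 96219502 and 96270120), a first cluster on chromosome 13 (14 regions between 21710033 and 22043689), a second cluster on chromosome 13 (23 regions between 23530919 and 23762710) and at 3 single genes.

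Histones are the proteins around which DNA is wrapped: H2A, H2B, H3 and H4 form the core of the nucleosome and H1 binds the linker DNA. Replication-dependent histone genes are transcribed mainly in S phase, when new DNA must be packaged, and their mRNAs end in a stem-loop in place of a poly(A) tail. They lie in clusters, often as H2A and H2B pairs read away from each other from 1 shared promoter. NPAT activates them, HINFP binds H4 promoters, POU2F1 binds the octamer of H2B promoters, and the NF-Y complex binds CCAAT boxes. Copies of 1 type have nearly the same coding sequence, so 38-base reads can fit several copies. The sources used here do not say how such reads were counted, and the value of a single copy is uncertain to that extent.

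The promoter stretches below belong to the 5 regions that passed the test (H3c4, H3c3, H3c10, H2bc8 and H2ac4) and to 2 H4 genes set against them, H4c6 and H4c3. Each is the 160 bases before the RefSeq start site on GRCm38.p6, read 5′ to 3′ on the strand of the gene. Capitals mark a TATA box (TATAAA), the letters of a CCAAT box or the octamer (ATTTGCAT), each on either strand, so that the reverse complement is in capitals too. No match overlaps another.
H3c4: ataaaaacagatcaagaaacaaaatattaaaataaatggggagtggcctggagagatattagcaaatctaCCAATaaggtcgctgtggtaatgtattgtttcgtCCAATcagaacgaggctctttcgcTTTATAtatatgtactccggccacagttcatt
H3c3: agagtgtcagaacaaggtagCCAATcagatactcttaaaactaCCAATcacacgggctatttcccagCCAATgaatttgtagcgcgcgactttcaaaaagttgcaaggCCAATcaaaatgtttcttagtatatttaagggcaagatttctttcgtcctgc
H3c10: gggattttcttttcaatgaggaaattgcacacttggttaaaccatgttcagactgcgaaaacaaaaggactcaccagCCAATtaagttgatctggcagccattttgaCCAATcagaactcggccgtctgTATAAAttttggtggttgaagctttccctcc
H2bc8: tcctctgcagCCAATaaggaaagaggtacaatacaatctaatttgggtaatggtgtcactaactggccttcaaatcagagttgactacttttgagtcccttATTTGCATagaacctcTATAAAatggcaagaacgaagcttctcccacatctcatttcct
H2ac4: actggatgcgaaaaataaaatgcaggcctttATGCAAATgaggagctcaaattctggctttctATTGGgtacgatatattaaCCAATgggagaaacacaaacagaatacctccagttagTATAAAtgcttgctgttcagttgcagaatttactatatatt
H4c6: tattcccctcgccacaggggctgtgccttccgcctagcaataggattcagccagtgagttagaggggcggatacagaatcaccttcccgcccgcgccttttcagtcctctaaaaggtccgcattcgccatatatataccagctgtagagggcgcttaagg
H4c3: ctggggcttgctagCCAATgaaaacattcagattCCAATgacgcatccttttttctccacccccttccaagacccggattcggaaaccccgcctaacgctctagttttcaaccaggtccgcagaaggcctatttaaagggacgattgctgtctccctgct

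These stretches lie at chr13:23575603-23575762 (H3c4, plus strand), chr13:23745522-23745681 (H3c3, minus), chr13:21717468-21717627 (H3c10, plus), chr13:23571240-23571399 (H2bc8, plus), chr13:23750928-23751087 (H2ac4, plus), chr13:23551669-23551828 (H4c6, minus) and chr13:23698459-23698618 (H4c3, minus). The H3 promoters carry between 2 and 4 CCAAT boxes, H2bc8 has the octamer 59 bases before the start, and H4c6 holds none of the 3 motifs. The start sites of H2bc8 and of its partner H2ac8 are 180 bases apart on opposite strands, so 1 region covers both. Of 48 histone promoters with a RefSeq sequence that overlapped the 47 regions, 40 had CCAAT on either strand within these 160 bases, or 83.3%, against 25.6% of all 32851 promoters in the RefSeq table. CCAAT was in 36 of 36 promoters of H2A, H2B and H3 genes and in 3 of 10 of H4 genes. A TATA box stood in 17 of the 48 (35.4%, against 8.01% of all promoters). The octamer stood in 6 of 14 H2B and 4 of 14 H2A promoters, in 0 of 8 H3 and in 0 of 10 H4 promoters, against 1.06% of all promoters.

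The deposited values look like scaled and rounded reads, and summed to 5437296, 5547417 and 5536256 in the CSE-KO libraries and to 5368491, 5264443 and 5242490 in the WT libraries. From the spacing of low values, a CSE-KO library held an estimated 3330000 to 3620000 reads in regions, and WT replicates 1 and 2 held 6780000 and 9240000. No step could be read for WT replicate 3. The fewer reads in CSE-KO move with the group, and their part in the results was not tested. The Cth promoter had 11, 6 and 2 in CSE-KO and 195, 157 and 167 in WT (log2 change -4.78 ± 0.46, SE, limma adjusted p = 0.00307), so no library went against its label. Of 12 endothelial markers, 10 had a region, with sums of 1751 to 1847 in CSE-KO and 1826 to 1947 in WT, and 2 of their 14 regions rose and 4 fell, where 7.7% of all regions rose and 9.6% fell by the limma test described with the histone results. Pecam1 and Vwf, defining endothelial genes, carried no region under their symbol. Lung epithelial markers (6 of 10 with a region) summed to 340 to 431 in CSE-KO and 360 to 395 in WT, with 2 of 7 regions risen and 0 fallen, at Krt8 (adjusted p = 0.0264) and Epcam (adjusted p = 0.0353). At an unadjusted limma p under 0.05, 2 of the 7 were higher and 2 lower. The lower ones were a second Krt8 region and Hopx (log2 change -0.74 and -0.53). Mural and fibroblast markers (6 of 10) summed to 492 to 499 in CSE-KO and 343 to 386 in WT, with 1 of 8 regions risen, at Col1a1 (adjusted p = 0.0176), and 0 fallen. Leukocyte markers (4 of 10) summed to 161 to 170 in CSE-KO and 233 to 286 in WT, with 1 of 4 regions fallen, at Spi1 (adjusted p = 0.0261), and 0 risen. At the unadjusted threshold, 2 endothelial regions were higher and 4 lower. It gave 2 mural and fibroblast regions higher and 0 lower, and 0 leukocyte regions higher and 2 lower. The leukocyte sum was lower and the mural and fibroblast sum higher in every CSE-KO library than in every WT library, and the part of these marker changes in the histone results was not tested. In bulk cells, fewer cells with an open site and less opening in each cell cannot be told apart.

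Most H2A, H2B and H3 gene regions of chromosome 13 had lower values in CSE-KO than in WT. Most H4 gene regions had a positive log2 change, as did 8139 of all 13246 promoter regions. These steps mostly missed the threshold. With limma on log2(value + 1) and Benjamini-Hochberg adjustment over all 58129 tested regions, 5 of the 47 regions fell and 0 rose at an adjusted p under 0.05. The 5 are 3 H3 regions, 1 H2A region and 1 region shared by an H2A and H2B pair. Over all regions 9.6% fell and 7.7% rose, so the 5 of 47 (10.6%) are near that background. Of all promoter regions, within 1 kb of a start site by the authors' distance, as are 44 of the 47, 3.29% fell and 5.23% rose. At an unadjusted p under 0.05, 12 of the 47 were lower and 3 higher, against 10426 lower and 9473 higher of all 58129 regions. Of 13246 promoter regions, 1036 were lower and 2128 higher at that threshold. Limma's trend and robust options called 12 of the 47 lower and 2 higher. They called 15448 of all regions in either direction and 7.71% of promoter regions lower. The falls numbered 1, 4 and 3 without CSE-KO replicates 1, 2 and 3, and 1, 0 and 0 without WT replicates 1, 2 and 3. Every CSE-KO library was below every WT library at 14 regions (29.8%), against 20.5% of all regions and 12.1% of promoter regions. It was above every WT library at 5 (10.6%), against 19% and 23.9%. The median log2 change was -0.12, beside -0.00 over all regions and 0.11 over promoter regions. The regions together held 0.141% ± 0.0031 of all values in CSE-KO and 0.159% ± 0.0032 in WT (SD, n = 3 each), lower in 3 of 3 CSE-KO libraries than in any WT library.

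**Figure D1:**
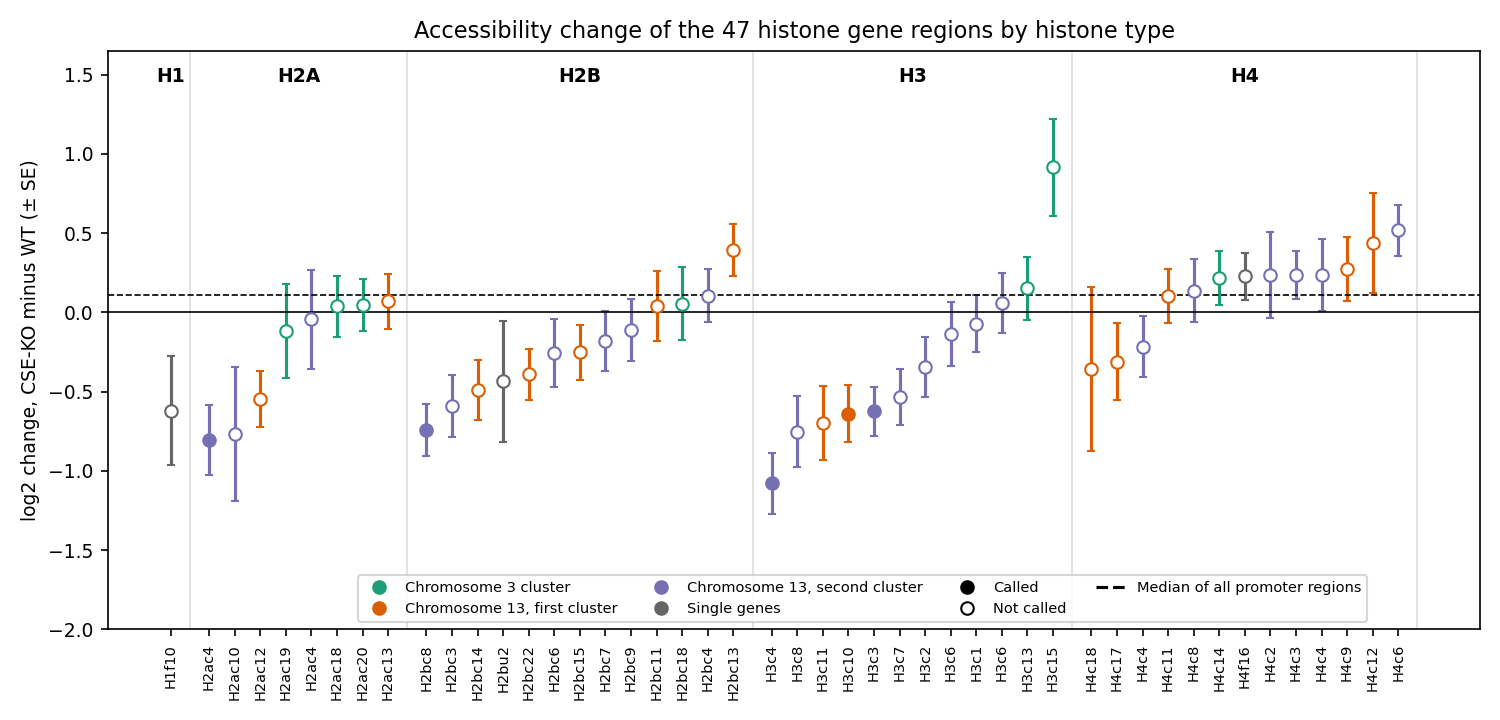
Log2 change (CSE-KO minus WT, on log2(value + 1), bars are SE) of each of the 47 regions, grouped by histone type and coloured by cluster. Filled points passed the adjusted test and the dashed line is the median of all promoter regions (0.11). The 5 filled points are H2ac4, H2bc8, H3c4, H3c10 and H3c3, all below 0, and 10 of 13 H4 points lie above 0.

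H3 genes encode the core histone whose tail carries many of the marks that set open and closed chromatin apart. Of the 12 H3 regions 3 fell and 0 rose, and the median log2 change was -0.44. Over all regions 9.6% fell, and over promoter regions 3.29%. At 7 of the 12 H3 regions (58.3%) every CSE-KO library was below every WT library, against 20.5% of all regions and 12.1% of promoter regions. The H3c4 region on chromosome 13 (23575646 to 23575990, 55 bp from the start site) had 54, 44 and 43 in CSE-KO and 88, 94 and 120 in WT. The groups stood well apart, with means of 47 ± 6.08 in CSE-KO and 100.7 ± 17 in WT (SD, n = 3 each), and the region fell by 1.08 ± 0.19 on the log2 scale (SE), 2.11-fold lower in CSE-KO (limma adjusted p = 0.0133). These values rest on an estimated 26 to 33 reads per CSE-KO library and on 111 and 165 in WT replicates 1 and 2. The call ended without WT replicate 2 (adjusted p = 0.05002) or WT replicate 3 (adjusted p = 0.0558).

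At H3c3 (23745360 to 23745667) the values were 49, 47 and 46 in CSE-KO and 69, 80 and 72 in WT. The CSE-KO libraries lay close together and below all WT libraries, 1.54-fold lower on average (log2 change -0.63 ± 0.15, SE, limma adjusted p = 0.0351). At H3c10 (21717502 to 21717818), 1 bp from the start site, they were 46, 60 and 49 in CSE-KO and 89, 78 and 75 in WT. Again no CSE-KO library reached a WT library, and the difference was 1.56-fold (log2 change -0.64 ± 0.18, SE, limma adjusted p = 0.0494). The H3c3 call ended without any 1 of the 6 libraries (adjusted p = 0.0529 to 0.127). The H3c10 call ended without each library except CSE-KO replicate 2 (highest adjusted p = 0.158).

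A further 4 H3 regions of chromosome 13 had all CSE-KO libraries below all WT libraries without passing the adjusted test. H3c8, which had the smallest p among the uncalled regions, had 136, 109 and 185 in CSE-KO and 222, 251 and 238 in WT (log2 change -0.75 ± 0.22, SE, limma adjusted p = 0.0585). Its CSE-KO replicate 3 was the nearest to WT, and without it the adjusted p was 0.0266. H3c11, the stronger H3 region of the first chromosome 13 cluster, had 44, 74 and 61 in CSE-KO and 113, 87 and 88 in WT (adjusted p = 0.0836). H3c7 and H3c2 differed by -0.53 and -0.34 on the log2 scale (adjusted p = 0.0802 and 0.243).

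The remaining H3 regions did not separate the groups. The region deposited under H3c1, the highest H3 region, is 1651 bp wide and covers the RefSeq promoter of H4c1. It had 359, 426 and 497 in CSE-KO and 443, 458 and 435 in WT, so the groups overlapped (log2 change -0.07 ± 0.18, SE). Both H3c6 regions overlapped between groups as well, with log2 changes of 0.06 and -0.14. On chromosome 3, H3c13 had 54, 70 and 54 in CSE-KO and 54, 61 and 45 in WT. The weak H3c15 region, 614 bp from the start site, had 34, 41 and 21 in CSE-KO and 14, 13 and 22 in WT, and its log2 change of 0.91 ± 0.30 (SE, limma adjusted p = 0.0803) was the highest of the 47.

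**Figure D2:**
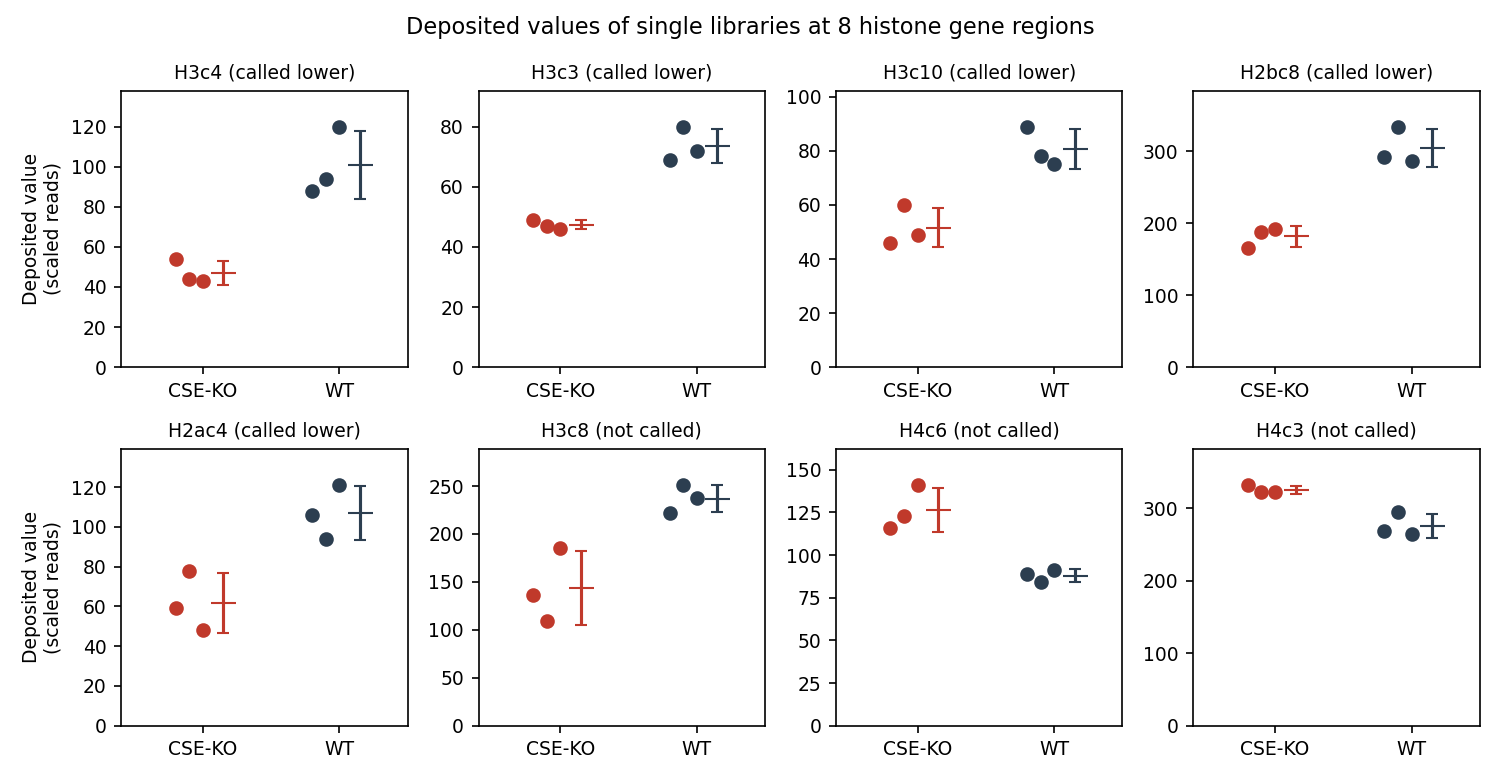
Deposited values (scaled reads) of single libraries at 8 histone gene regions, with the mean and SD of the 3 libraries beside the points. In the 5 regions called lower and at H3c8 every CSE-KO point lies below every WT point, and at H4c6 and H4c3 every CSE-KO point lies above (116 to 141 against 84 to 91 at H4c6).

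H2A and H2B form the dimers of the nucleosome core. At H2bc8 (23570856 to 23571946), which lies over the shared promoter of H2bc8 and H2ac8 whose sequence is shown above, the values were 165, 188 and 192 in CSE-KO and 292, 334 and 286 in WT. The highest CSE-KO library stood far below the lowest WT library. The region averaged 182 ± 14.6 in CSE-KO and 304 ± 26.2 in WT (SD, n = 3 each), 1.67-fold lower (log2 change -0.74 ± 0.16, SE, limma adjusted p = 0.0250). The call ended without CSE-KO replicate 1 (adjusted p = 0.0504), WT replicate 1 (0.0793), WT replicate 2 (0.0978) or WT replicate 3 (0.0758).

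The H2ac4 region at the start site (23750988 to 23751431) had 59, 78 and 48 in CSE-KO and 106, 94 and 121 in WT. The groups did not overlap and the region was 1.75-fold lower in CSE-KO (log2 change -0.81 ± 0.22, SE, limma adjusted p = 0.0484). The H2ac4 call held without CSE-KO replicate 2 (adjusted p = 0.0300) and ended without any other library (highest adjusted p = 0.153). The H2ac4 and H3c10 calls also ended with a pseudocount of 0.5 (adjusted p = 0.0508 and 0.0505) and after quantile normalization (0.0557 and 0.0505). A second H2ac4 region, 1312 bp from the start site, had 26, 41 and 51 in CSE-KO and 55, 34 and 32 in WT, with no separation of the groups.

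Over both types, 1 of 8 H2A (12.5%) and 1 of 13 H2B (7.69%) regions fell and 0 rose, with median log2 changes of -0.08 and -0.25. These shares are near the 9.6% of all regions that fell, and 3.29% of promoter regions fell. Against 20.5% of all regions and 12.1% of promoter regions, CSE-KO lay wholly below WT at 3 H2A (37.5%) and 4 H2B (30.8%) regions. Among them, H2ac12 (the pair with H2bc12) had 201, 241 and 259 in CSE-KO and 342, 371 and 309 in WT (adjusted p = 0.0747). H2bc22 (the pair with H2ac22) had 261, 264 and 236 in CSE-KO and 361, 340 and 300 in WT (adjusted p = 0.138). These too showed no overlap, yet missed the threshold, as did H2bc14, H2bc3 and H2ac10 (adjusted p = 0.117, 0.0786 and 0.243). Of the 9 regions that cover 2 histone promoters, 1 fell (11.1%, also near the share of all regions) and the median was -0.25.

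Other H2A and H2B regions did not separate the groups. The highest H2B region, deposited under H2bc4 and lying over the H2ac6 promoter, had 470, 464 and 415 in CSE-KO and 445, 372 and 438 in WT (log2 change 0.11 ± 0.16, SE). On chromosome 3, H2ac20, which shares its region with H2ac21 and is the highest of all 47, had 552, 466 and 518 in CSE-KO and 455, 539 and 492 in WT. H2bc18 there had 193, 176 and 287 in CSE-KO and 189, 237 and 194 in WT. The groups overlapped at each of these. Among H2A and H2B regions the CSE-KO libraries were all above the WT libraries at 1, which lies 5511 bp from the H2bc13 start site (243 ± 10.6 in CSE-KO and 186 ± 22.4 in WT, SD, n = 3 each, adjusted p = 0.143). The single gene H2bu2 on chromosome 11 was weak, with 28, 9 and 16 in CSE-KO and 20, 19 and 28 in WT.

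H4 pairs with H3 at the centre of the nucleosome, and all 13 H4 regions carry the deposited symbol H4c1. Of these 13 regions 0 fell and 0 rose by limma. At an unadjusted p under 0.05, 1 was higher and 0 lower, and likewise 1 and 0 with trend and robust options. The log2 change was positive at 10 of the 13, and at 8139 of all 13246 promoter regions. The H4 median was 0.23, beside 0.11 over promoter regions. The CSE-KO libraries were all above the WT libraries at 4 of the 13 (30.8%), near the 23.9% of promoter regions, and below at 0. H4c6 came nearest to the threshold, with 116, 123 and 141 in CSE-KO and 89, 84 and 91 in WT. Its lowest CSE-KO library was above its highest WT library, and the log2 change was 0.52 ± 0.16 (SE, limma adjusted p = 0.0674).

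H4c3 had 332, 322 and 322 in CSE-KO and 269, 295 and 264 in WT (log2 change 0.24 ± 0.15, SE, adjusted p = 0.309). H4c14 on chromosome 3 had 322, 389 and 320 in CSE-KO and 300, 319 and 267 in WT. The single gene H4f16 on chromosome 6 had 229, 218 and 226 in CSE-KO and 194, 188 and 192 in WT, a difference of 0.23 on the log2 scale. All 3 separated the groups by a small step and none passed the adjusted test. H4c11, the strongest H4 region of the first chromosome 13 cluster, overlapped between groups, with 217, 274 and 220 in CSE-KO and 233, 209 and 217 in WT. The lowest log2 changes were at H4c18, H4c17 and the H4c4 region at the start site (-0.36, -0.31 and -0.22). H4c18 and H4c17 had values of 8 to 33 and lie 697 and 679 bp from the start site. A second H4c4 region, 3985 bp from the start site, lies over the H2bc6 promoter. It is counted among the 13 H4 regions, with a log2 change of 0.24.

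Types can also be followed library by library. Relative to the WT mean of each region, the median over the 12 H3 regions was -0.44, -0.39 and -0.27 (log2) in CSE-KO replicates 1 to 3 and -0.09, 0.09 and -0.02 in WT replicates 1 to 3. Over the 13 H4 regions it was 0.26, 0.19 and 0.12 in CSE-KO and 0.02, -0.03 and -0.01 in WT. H3 sums were 0.0233% ± 0.0013 of all values in CSE-KO and 0.0301% ± 0.0016 in WT, and H4 sums 0.0377% ± 0.0012 in CSE-KO and 0.0340% ± 0.0008 in WT (SD, n = 3 each). The H3, H2A and H2B medians were below 0 and the H4 median above 0 in all 15 alternative settings. They ran from -0.56 to -0.37 for H3 and 0.11 to 0.24 for H4. Trend and robust options, the replicate number as a block and removal of the filter on low values cannot change these medians. The regions of a type share sequence, and the difference between types was not tested.

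**Figure D3:**
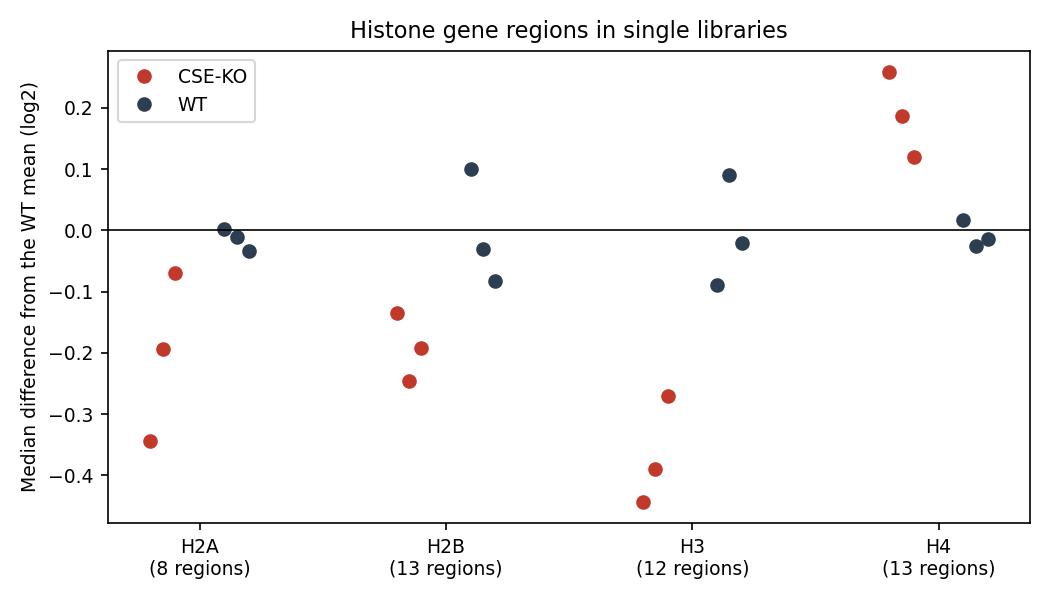
Median difference from the WT mean of each region (log2) over the H2A, H2B, H3 and H4 regions, 1 point per library. For H4 the 3 CSE-KO points (0.12 to 0.26) lie above the WT points, and for H3 they lie below (-0.44 to -0.27).

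By cluster, all 5 falls were on chromosome 13. The second cluster there had 4 falls among 23 regions (17.4%) and a median log2 change of -0.18. The first had 1 among 14 (7.14%) and a median of -0.28. Over all regions 9.6% fell, so 0 falls among the 7 regions of the chromosome 3 cluster cannot set it apart. The difference between clusters was not tested. The cluster on chromosome 3 had 0 falls and 0 rises among 7 (1 higher and 0 lower at an unadjusted p under 0.05, and 0 and 0 with trend and robust options), with log2 changes between -0.12 and 0.91, and its median of 0.06 turned to -0.07 when libraries were centred on promoter regions and to -0.0021 when divided by their totals. Within 1 kb of the start site, 24 regions of H2A, H2B and H3 genes lie on chromosome 13. Of these 20 had a negative log2 change, 14 were wholly below WT and 5 fell, with a median of -0.44, where 12.1% of promoter regions were wholly below WT and 3.29% fell. These 24 were grouped after the values were seen and hold every called region, so their counts are a description. The 10 H4 regions within 1 kb on chromosome 13 had a median of 0.19, with 7 positive and 3 negative. Of all 13246 promoter regions 8139 were positive, with a median of 0.11. Per kb of region, the H3c4 value was 137 ± 17.7 in CSE-KO and 293 ± 49.4 in WT, and the H4c6 value 309 ± 31.5 in CSE-KO and 215 ± 8.79 in WT (SD, n = 3 each). In WT the H3c4 value per kb was thus the higher of the 2, and in CSE-KO the H4c6 value was. H3c4 had the lowest log2 change of all histone gene regions, and H4c6 the highest of the H4 regions. The pair joins the extremes of the same values, so the change of order is a description and no test. H4c6 was not called (limma adjusted p = 0.0674).

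Regions between the histone genes were counted apart. Inside the 3 clusters lie 33 regions that carry no symbol of the rule, of which 6 rose and 1 fell, with a median log2 change of 0.33. All 6 rises lay in the widest stretch without a histone gene region, 204 kb of the first chromosome 13 cluster (21831627 to 22035172). Of its 20 regions 6 rose (30%) and 0 fell (11 higher and 1 lower at an unadjusted p under 0.05), with a median of 0.51. The stretch was not set apart in advance and holds every rise, so its counts are a description. Of distal regions, over 1 kb from any start site or with no gene, 8.43% rose and 11.5% fell. The region from 22020616 to 22021187, with no gene in the table, had 173, 170 and 212 in CSE-KO and 70, 72 and 76 in WT. It was 2.51-fold higher (log2 change 1.33 ± 0.17, SE, limma adjusted p = 0.00532), with no overlap of the groups. The promoter of Zfp184, a zinc finger gene in this stretch, had 198, 213 and 136 in CSE-KO and 88, 107 and 101 in WT (limma adjusted p = 0.0376). At the far edge of the stretch lies H2ac12, whose values are given above. The rises numbered 2, 2 and 1 in this stretch without WT replicate 1, 2 and 3.

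**Figure D4:**
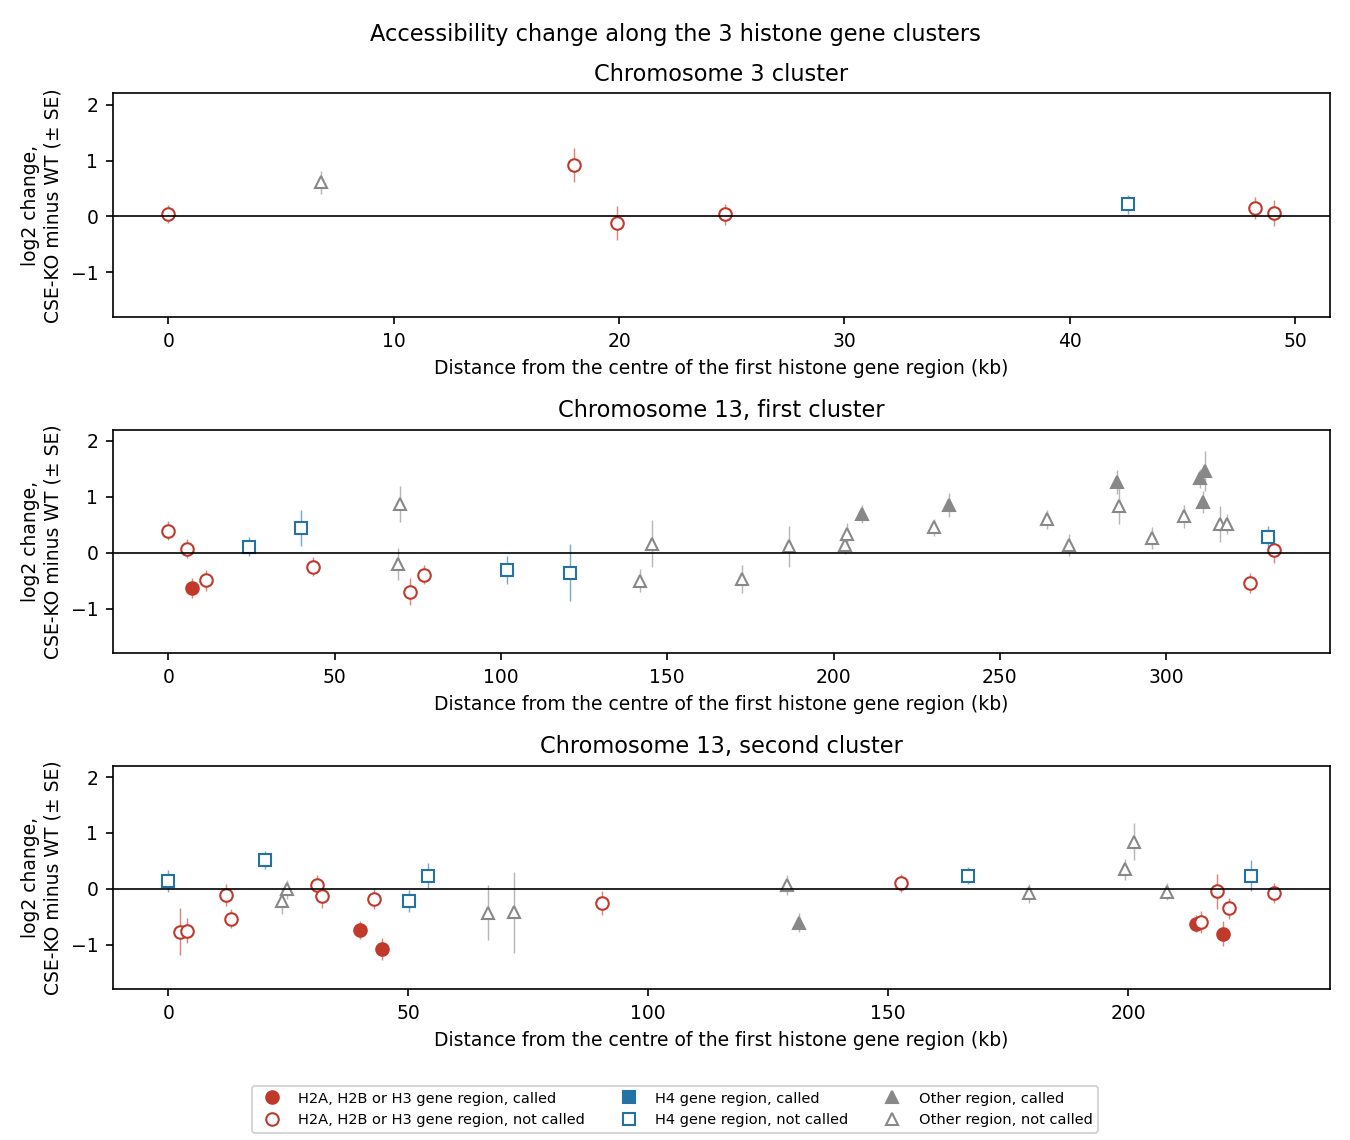
Log2 change (CSE-KO minus WT, bars are SE) against the distance in kb from the centre of the first histone gene region of each cluster. Circles are H2A, H2B and H3 gene regions, squares H4 gene regions and triangles other regions, filled where called. Filled circles lie below 0 in both chromosome 13 clusters, and 6 filled triangles lie above 0 in the stretch of the first cluster without histone gene regions.

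Linker histone genes H1-2, H1-3 and H1-5 carry symbols outside the rule and had 5 regions inside the clusters, with 0 rises and 0 falls by limma (1 higher and 0 lower at an unadjusted p under 0.05, and 0 and 0 with trend and robust options) and a median log2 change of -0.05. H1f10 had 54, 43 and 102 in CSE-KO and 78, 90 and 125 in WT. The groups overlapped and the spread in CSE-KO was wide (66.3 ± 31.4 in CSE-KO and 97.7 ± 24.4 in WT, SD, n = 3 each, limma adjusted p = 0.249).

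Genes that act on histone synthesis, packaging or S phase were taken as 4 lists. Of 65 regions matched by symbol, 1 rose and 1 fell, with a median log2 change of 0.12. Among 13 regions of transcription and mRNA end processing genes 0 rose and 0 fell by limma (2 higher and 0 lower at an unadjusted p under 0.05, and likewise with trend and robust options). The smallest p there were at Upf1, an RNA helicase of mRNA decay, with 237, 230 and 287 in CSE-KO and 192, 163 and 178 in WT (limma adjusted p = 0.0902), and at Snrpb, with 185, 176 and 190 in CSE-KO and 136, 144 and 149 in WT (limma adjusted p = 0.143). Both separated the groups without passing the threshold. Among 12 regions of replacement histones 0 rose and 0 fell by limma (1 higher and 0 lower at an unadjusted p under 0.05, and likewise with trend and robust options). First by p were Macroh2a1 (235 ± 6.03 in CSE-KO and 174 ± 13.2 in WT, SD, n = 3 each, limma adjusted p = 0.0951) and H2az1 (243 ± 17.1 in CSE-KO and 294 ± 20.6 in WT, SD, n = 3 each, limma adjusted p = 0.264).

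Of 18 regions of histone chaperones 1 fell and 0 rose by limma, while 3 were higher and 2 lower at an unadjusted p under 0.05, and 4 higher and 1 lower with trend and robust options. Their summed values were higher in every CSE-KO library (5953 to 6508) than in every WT library (5735 to 5861). These sums were not divided by the library totals. The totals too were higher in every CSE-KO library (5437296 to 5547417) than in every WT library (5242490 to 5368491). The median log2 change of the 18 regions was 0.17, beside 0.11 over promoter regions. The fall was at the promoter of Ipo4, an importer of histones into the nucleus, with 206, 149 and 167 in CSE-KO and 296, 263 and 302 in WT (log2 change -0.73 ± 0.18, SE, limma adjusted p = 0.0371). Npm1, a nucleolar histone chaperone, was on the other side, with 322, 354 and 349 in CSE-KO and 238, 210 and 247 in WT (limma adjusted p = 0.0517). Of 22 regions of S-phase and proliferation genes 1 rose and 0 fell by limma, while 1 was higher and 2 lower at an unadjusted p under 0.05, and 0 were higher and 4 lower with trend and robust options. Their summed values were lower in every CSE-KO library (4748 to 5199) than in every WT library (5296 to 5363). Such sums weigh strong regions most, and the median log2 change of the 22 regions was 0.01. The rise, which ended with trend and robust options, was at a weak region 825 bp from the start of Rrm1, a subunit of ribonucleotide reductase, with 29, 40 and 25 in CSE-KO and 15, 18 and 17 in WT (limma adjusted p = 0.0365). The E2f1 promoter, the next by p, had 356, 417 and 359 in CSE-KO and 532, 466 and 538 in WT (limma adjusted p = 0.107). The Ipo4 and Rrm1 calls are read against the 3.29% of promoter regions that fell and the 5.23% that rose.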

How the data were processed

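ATAC-seq was made from lung endothelial cells, with 3 CSE-KO and 3 WT libraries grouped by title. The submitters' processing notes name the build mm10, STAR 2.7.3a, Trimmomatic 0.39, DESeq2 1.26.0 and Picard 3.1.1, with no role for each and no peak caller. The deposited numbers have the unit score: whole numbers that look like reads scaled between libraries and rounded, since 35 to 39 whole numbers up to 100 occur nowhere in a CSE-KO library. The distance to the start site is the authors' own. Members follow a symbol rule, and members and lists were chosen with earlier results of these data known.

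Regions with a mean of at least 5 were fitted on log2(value + 1) with limma 3.58.1 (R 4.3.3), without trend or robust options, and with Benjamini-Hochberg adjustment at 0.05. Scripts ran in Python 3.11.15 and were tested on simulated data. Full values are given for called regions, the strongest region of each cluster and type and 2 uncalled regions of smallest p, and for pathway lists the 2 regions of smallest p; H3c15, H2bc13, the second H2ac4 region, the 22020616 region, Zfp184 and regions named with a change or p alone were added after values were seen. Fold changes on this scale understate weak regions.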

Additional observations from a re-analysis of the deposited data

How the results depend on the processing

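The count of histone gene regions called lower, 5, became 10 when libraries were centred on promoter regions, 12 with trend and robust options, 3 with a pseudocount of 0.5 and 3 after quantile normalization, where H2ac4 and H3c10 were lost both times. Regions called higher, 0, became 1 with a mean of at least 20 and 2 with trend and robust options. Leaving out 1 library gave 0 to 4 lower and 0 to 1 higher. Over all regions, 10057 calls became 15448 with trend and robust options, 6013 with the replicate number as a block and 3493 to 3644 without 1 WT library. The median of the histone gene regions was below 0 in each alternative, though trend and robust options, the replicate block and removal of the filter cannot change it. For regions between the histone genes, 6 rises became 12 with trend and robust options and 1 to 6 without 1 library, and the 1 fall became 0 after quantile normalization and 0 to 1 without 1 library. For the histone pathway lists, 1 rise became 0 when centred on promoter regions, 3 with a mean of at least 20, a pseudocount of 5 or quantile normalization and 7 with trend and robust options, and 1 fall became 5 with these options. Without 1 library, 0 to 1 rose and 0 to 1 fell. The Cth call held in each of its 15 alternatives. The causes were not tested.

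The replicate numbers gave no sign of pairing, as same-numbered libraries had deviations correlated at -0.0059, -0.0105 and 0.0105. Correlations near 0 over all tested regions cannot exclude a shared preparation, which the labels do not give. With the replicate number as a block, 1 histone gene region was lower (H3c4, adjusted p = 0.0448), and the calls at H2bc8 (0.0650), H3c3 (0.0894), H2ac4 (0.103) and H3c10 (0.105) ended. In the same fit, 2 regions between the histone genes were higher and 0 lower, and 0 pathway regions rose and 0 fell.

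Some uncalled log2 changes near 0 turned sign. Centred on promoter regions, whose scaling moved the median of all regions to -0.13, H2ac20 was -0.0753, H2bc18 -0.0677, H4c11 -0.0207 and H2bc4 -0.0165. Divided by the total value, H2ac20 was -0.0098 and H2bc18 -0.0021. Without 1 library the ranges were -0.0118 to 0.11 at H2ac20, -0.16 to 0.19 at H2bc18, -0.0062 to 0.16 at H4c11 and -0.19 to 0.0474 at H3c1. The share of all values in histone gene regions, -0.0178 percentage points in CSE-KO minus WT, was -0.0109 without regions over 10000. Without H1f10, or with only regions within 1 kb of a start site, both added after the data were seen, 5 regions were lower. The H3c4 values rest on an estimated 26 to 33 reads per CSE-KO library.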

Other observations

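The CCAAT box, present in all 36 H2A, H2B and H3 promoters above, was also set beside the change at other genes, a comparison chosen after the values were seen. The 28 histone regions of these 3 types over a RefSeq promoter with CCAAT had a median log2 change of -0.30, with 20 negative and 8 positive. The 3 H4 regions with CCAAT and the 7 without had medians of 0.24 and 0.24, where a region takes the type of its deposited gene and 1 of the 3 lies over an H2bc6 promoter. Among promoter regions of other genes, the 2782 with CCAAT within 160 bases of a start site had a median log2 change of 0.02, the 969 with 2 or more CCAAT had -0.08, and the 5884 without it had 0.15. Of those with 2 or more, 1.14% rose and 3.61% fell, and of those without it 5.46% rose and 1.73% fell. Width, strength and base composition were not matched between these sets, and their part in the difference was not tested.

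Narrow histone regions held most of the calls: 4 of the 21 under 500 bp fell, against 1 of the 26 of 500 bp or more, with medians of -0.31 and 0.04. Of all promoter regions, 4.48% fell under 500 bp and 2.92% at 500 bp or more, with medians of 0.15 and 0.10.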
